A study of Mus musculus with 12 samples.

Results

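Transcript levels of 10 genes known as targets of the transcription factor p53 were followed across 4 mouse iPS lines. Induced pluripotent stem (iPS) cells are body cells that have been reprogrammed to resemble embryonic stem cells. The listed genes were Trp53, which encodes p53 itself, and Mdm2, Ccng1, Trp53inp1, Zmat3, Aen, Bax, Eda2r, Phlda3 and Ddit4. They were chosen by name, with earlier results of these data known. Each was to be represented by the brightest of the probe sets that the array annotation assigned to it alone. Of the 10, 8 had such a probe set, 1 each, among 19938 genes represented on the array. Trp53 and Bax had none in the annotation used here and were not analysed here, so the level of the p53 transcript itself is not part of the values below.

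All 4 lines were made from C57BL/6J mouse embryonic fibroblasts with 3 reprogramming factors and were grown in medium for embryonic stem cells. LiPS-45 and LiPS-57 had competence for tetraploid complementation, an assay in which stem cells are placed into a tetraploid host embryo and must form the fetus themselves. LiPS-47 and LiPS-50 lacked it. Each line was sampled as 3 biological repeats, so 12 Affymetrix arrays measured 4 lines, and the labels name neither the factors, nor the sex of the lines, nor a feeder layer. The labels' word for a repeat does not say whether the cultures were grown separately, so the p-values between lines measure only the spread between these samples. Values are given as log2(intensity + 1), called log2 intensity, where a step of 1 is a doubling of signal. The number of arrays limits the precision.

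p53 is a transcription factor that is kept scarce by the ubiquitin ligase Mdm2 and accumulates when cells meet DNA damage or other stress. It then switches on genes for growth arrest, repair and cell death, together with Mdm2 itself, which closes a negative feedback loop. In reprogramming p53 is known as a barrier, since cells with less of it yield iPS colonies more readily. In its target genes p53 binds a pair of 10-base motifs, each a short palindrome around a fixed C and G.

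Promoter sequences from RefSeq (mouse build GRCm38.p6) were available for 6 of the 8 measured members, and 7 promoters of 250 bases before an annotated start were searched on both strands for the consensus of this p53 decamer. An exact match to 1 decamer occurred in 3 of these 7 promoters, and in 7.13% of 32851 mouse promoters searched in the same way. A pair of decamers with at most 3 mismatches and at most 13 bases between them occurred in 2 of 7, and in 13% of all promoters. The other 4 promoters held no match of either kind, and Trp53inp1 and Zmat3 are named without a sequence. The promoter of Ccng1 is shown because its pair of decamers, in capitals, had 1 mismatch and no spacer. Pairs with at most 1 mismatch, at any spacer up to 13 bases, were found in 0.505% of all promoters. That of Mdm2 is shown for its single exact decamer in capitals. The promoter of Eda2r, the member with the lowest p among the 4 lines, had no match and is in lower case throughout. Of the 250 bases searched, 227 are printed for Ccng1 and 225 for Eda2r, the bases nearest to the start being left off. For Aen only the pair is shown, which had 3 mismatches and lay between the annotated starts of the gene. All are written 5′ to 3′ on the strand of the gene: Ccng1 on the minus strand of chr11:40755310-40755536, Mdm2 on the minus strand of chr10:117710759-117711008, Eda2r on the minus strand of chrX:97377235-97377459 and the Aen pair on the plus strand of chr7:78895937-78895956. A match is a description of the letters and not evidence of binding.
Ccng1: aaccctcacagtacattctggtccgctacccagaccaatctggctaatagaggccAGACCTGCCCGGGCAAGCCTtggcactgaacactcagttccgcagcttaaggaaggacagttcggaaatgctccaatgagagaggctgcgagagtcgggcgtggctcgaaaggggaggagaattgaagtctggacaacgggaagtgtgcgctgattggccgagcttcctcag
Mdm2: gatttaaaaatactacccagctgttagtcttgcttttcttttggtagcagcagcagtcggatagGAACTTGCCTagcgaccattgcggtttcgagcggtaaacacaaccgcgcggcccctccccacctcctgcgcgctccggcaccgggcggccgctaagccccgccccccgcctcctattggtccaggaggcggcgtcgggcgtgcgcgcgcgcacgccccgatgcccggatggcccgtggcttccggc
Eda2r: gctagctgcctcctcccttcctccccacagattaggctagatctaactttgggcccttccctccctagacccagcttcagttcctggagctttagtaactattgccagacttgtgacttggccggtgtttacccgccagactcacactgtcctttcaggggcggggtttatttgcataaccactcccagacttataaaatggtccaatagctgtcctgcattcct
Aen: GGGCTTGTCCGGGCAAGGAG

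Before the members' values, the arrays themselves need describing. Correlations between arrays of the same line lay between 0.996 and 0.997, and all 12 pluripotency markers examined, Pou5f1 and Nanog among them, lay above the 40th percentile of all probe sets in every array. The summed intensity of these markers ranged over 22913 to 23683 in LiPS-45, 23560 to 23978 in LiPS-57, 22853 to 23356 in LiPS-47 and 22557 to 23080 in LiPS-50. Their median log2 intensity ranged over 10.35 to 10.38 in LiPS-45, 10.35 to 10.38 in LiPS-57, 10.29 to 10.35 in LiPS-47 and 10.08 to 10.12 in LiPS-50, so that LiPS-50 lay below the rest. Of the 12, 5, 4 and 3 were called higher and 2, 2 and 3 lower in LiPS-45, LiPS-57 and LiPS-47 than in LiPS-50. The shares of all tested probe sets were 8.3%, 7.48% and 7.31% higher and 8.18%, 8.16% and 8.48% lower. Lin28a, Sall4 and Tdgf1 were called higher and Fgf4 and Dppa5a lower in each comparison. Tdgf1 and Dppa5a were named after their values were seen. LiPS-50 stood apart from the other lines. Probe sets called different at an adjusted p below 0.05 (limma, Benjamini-Hochberg over 28939 probe sets) made up 16.5%, 15.6% and 15.8% in its comparisons with LiPS-45, LiPS-57 and LiPS-47. The corresponding shares among the other 3 lines were 0.266% for LiPS-45 minus LiPS-57, 0.0622% for LiPS-45 minus LiPS-47 and 0.159% for LiPS-57 minus LiPS-47.

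LiPS-50 also carried more signal from 25 measured markers of fibroblasts, the cell type of feeder layers and of the starting population. Their summed intensity ranged over 27634 to 32420 in LiPS-45, 27914 to 29894 in LiPS-57, 23782 to 29243 in LiPS-47 and 37996 to 42360 in LiPS-50, without overlap between LiPS-50 and the rest. In LiPS-50, 24, 23 and 24 of the 25 were called higher than in LiPS-45, LiPS-57 and LiPS-47. The shares of all tested probe sets were 8.18%, 8.16% and 8.48%. Among the other 3 lines 0 of the 25 markers were called. None was at 0, and 24 lay above the 40th percentile in every array. Fap, a defining marker of activated fibroblasts, was the dim one, with line means between 4.22 and 4.74 log2 intensity, below that percentile of 5.21. Some of these markers, such as Vim and Fn1, are also transcribed in pluripotent cells. In bulk samples more cells of a type and more RNA per cell cannot be told apart.

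Every measured p53 target was present at a level above that of most probe sets, with mean intensities from the 79.8th percentile for Aen to the 98.3rd for Ccng1. Across lines LiPS-50 was highest on average for all 8 members. The means of the other 3 lines spanned from 0.0557 for Ccng1 to 0.222 for Aen. For Aen the LiPS-47 mean was only 0.048 below that of LiPS-50. In 6 of 8 members (Mdm2, Ccng1, Trp53inp1, Eda2r, Phlda3 and Ddit4) all 3 LiPS-50 arrays exceeded all 9 others, a pattern found in 8.81% of all tested probe sets, and in 0 of 8 they lay below all others (9.54%). Zmat3 and Aen were the exceptions. The test of any difference among the 4 lines (limma's moderated F test) called 7 of 8 members, all but Zmat3, against 14.9% of all tested probe sets.

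**Figure D1:**
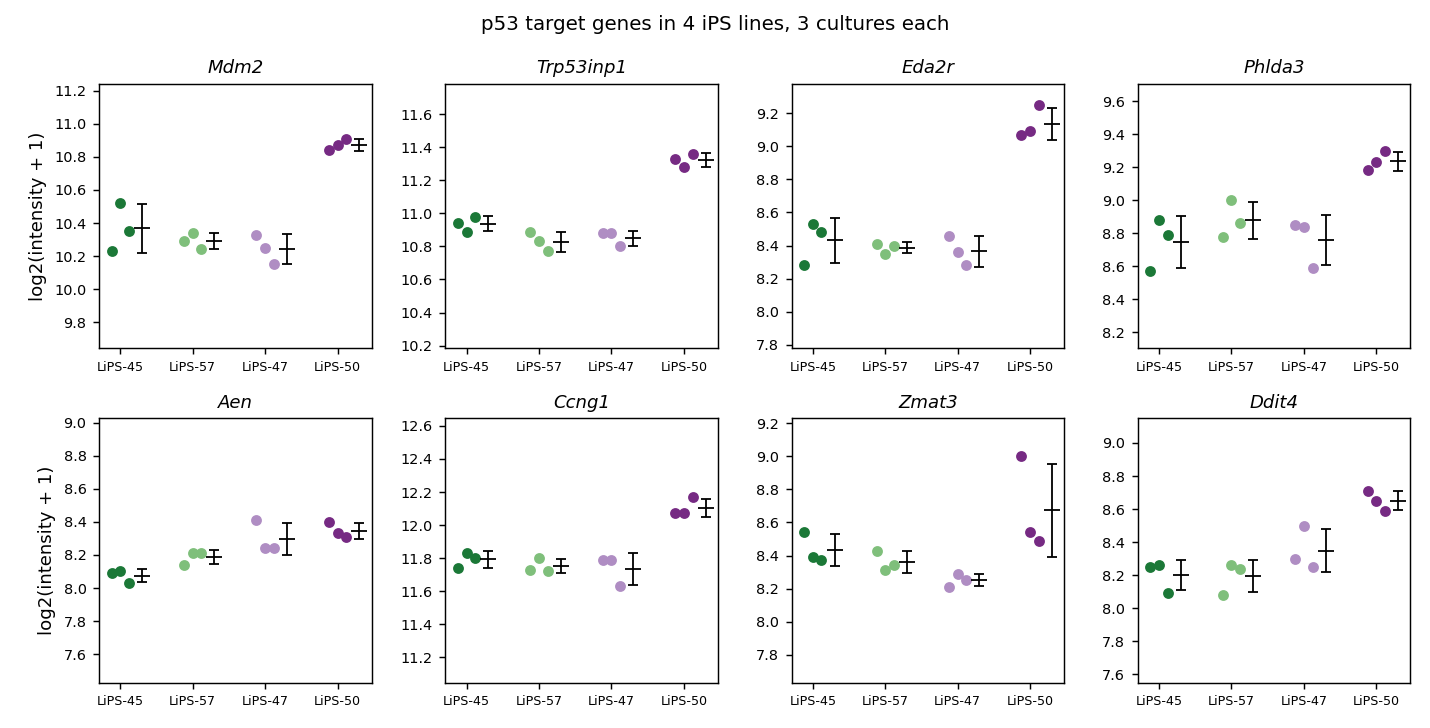
Log2 intensity of the 8 measured p53 targets in each of 3 arrays per line (points), with the mean and SD of each line in black, the lines running LiPS-45, LiPS-57, LiPS-47 and LiPS-50 from left to right; the vertical axes differ in position but not in length. The 3 LiPS-50 points lie above all others for Mdm2, Trp53inp1, Eda2r, Phlda3, Ccng1 and Ddit4, and overlap with other lines for Aen and Zmat3.

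Mdm2, Ccng1 and Trp53inp1 act on p53 itself. Mdm2 (chromosome 10, probe set 10372668) measured 10.23, 10.52 and 10.35 log2 intensity in the 3 LiPS-45 cultures, 10.29, 10.34 and 10.24 in LiPS-57, 10.33, 10.25 and 10.15 in LiPS-47, and 10.84, 10.87 and 10.91 in LiPS-50. The LiPS-50 cultures were tightly grouped above the rest, and the ranges of the other 3 lines overlapped each other. The gap between the lowest LiPS-50 array and the highest other array was 0.313. The log2 difference was -0.51 for LiPS-45 minus LiPS-50, -0.58 for LiPS-57 minus LiPS-50 and -0.63 for LiPS-47 minus LiPS-50, each with a standard error of 0.0778. Mdm2 was thus 1.42-fold, 1.5-fold and 1.55-fold lower in LiPS-45, LiPS-57 and LiPS-47 than in LiPS-50, with limma adjusted p of 9.45e-04, 4.00e-04 and 1.98e-04.

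Ccng1 encodes cyclin G1, which brings a phosphatase to Mdm2 and is counted among the most regular p53 targets in mouse cells. The brightest member (chromosome 11, probe set 10385271), it measured 11.74, 11.83 and 11.80 log2 intensity in LiPS-45, 11.73, 11.80 and 11.72 in LiPS-57, 11.79, 11.79 and 11.63 in LiPS-47, and 12.07, 12.07 and 12.17 in LiPS-50. Again the LiPS-50 arrays stood above all others, here by 0.235, and the other lines could not be ordered. The differences of LiPS-45, LiPS-57 and LiPS-47 from LiPS-50 were -0.31, -0.35 and -0.37 (SE 0.0643), with adjusted p of 0.00587, 0.00300 and 0.00194. Folds were 1.24, 1.28 and 1.29. Its promoter is the one printed above with the pair of decamers.

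Trp53inp1 encodes a stress protein that promotes phosphorylation of p53 and takes part in autophagy. It (chromosome 4, probe set 10503259) measured 10.94, 10.89 and 10.98 log2 intensity in LiPS-45, 10.89, 10.83 and 10.77 in LiPS-57, 10.88, 10.88 and 10.80 in LiPS-47, and 11.33, 11.28 and 11.36 in LiPS-50. The spread within lines was among the smallest of the members, with SDs of 0.0401 to 0.0612 (n = 3 cultures a line), and LiPS-50 was separated from the rest by 0.298. The differences from LiPS-50 were -0.38 for LiPS-45, -0.49 for LiPS-57 and -0.47 for LiPS-47 (SE 0.0580), or 1.31-fold, 1.41-fold and 1.39-fold lower, with adjusted p of 8.25e-04, 1.53e-04 and 1.86e-04.

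Eda2r, Aen and Zmat3 belong to the arm of the response that leads towards cell death or growth control. Eda2r, a receptor of the tumour necrosis factor receptor family that binds an isoform of ectodysplasin, is X-linked (probe set 10605874). Its levels were 8.28, 8.53 and 8.48 log2 intensity in LiPS-45, 8.41, 8.35 and 8.40 in LiPS-57, 8.46, 8.36 and 8.28 in LiPS-47, and 9.07, 9.09 and 9.25 in LiPS-50. It showed the widest gap of all members, 0.533 between the lowest LiPS-50 array and the highest other array. The differences were -0.70, -0.75 and -0.77 for LiPS-45, LiPS-57 and LiPS-47 minus LiPS-50 (SE 0.0804), or 1.63-fold, 1.68-fold and 1.70-fold lower, with adjusted p of 1.14e-04, 8.46e-05 and 5.86e-05.

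X-linked genes as a group were also lower in the 3 lines than in LiPS-50, which bears on Eda2r alone among the members. The median log2 difference of 739 X-linked genes was -0.16 for LiPS-45 minus LiPS-50, -0.15 for LiPS-57 minus LiPS-50 and -0.14 for LiPS-47 minus LiPS-50, against medians of -0.0087, -0.0027 and 0.012 over 19106 autosomal genes. Eda2r lay -0.55, -0.60 and -0.62 from the X-linked medians. In the 3 comparisons 42, 39 and 46 of the X-linked genes had a more negative difference than Eda2r, which is 5.68%, 5.28% and 6.22% of them. The part of the X chromosome in the Eda2r values was not tested. Over the 12 arrays the genes with the profile most like that of Eda2r were Magt1 (r = 0.991) and Ctps2 (r = 0.990), both X-linked, and Tfpi on chromosome 2 (r = 0.990). These correlations describe arrays that fall into LiPS-50 and the rest, and 688 of 19930 genes had an r above 0.9.

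Aen, an exonuclease that enhances apoptosis, differed from the other members in its order of lines. It (chromosome 7, probe set 10554233) measured 8.09, 8.10 and 8.03 log2 intensity in LiPS-45, 8.14, 8.21 and 8.21 in LiPS-57, 8.41, 8.24 and 8.24 in LiPS-47, and 8.40, 8.33 and 8.31 in LiPS-50. LiPS-45 was lowest and did not overlap with LiPS-57, whereas LiPS-47 and LiPS-50 overlapped. The difference of LiPS-45 minus LiPS-50 was -0.27 (SE 0.0633, 1.21-fold lower), with an adjusted p of 0.0118. That call was lost after centring each array on its median (adjusted p = 0.0507) and without the third LiPS-45 culture (0.0502). LiPS-57 minus LiPS-50 gave -0.16 (adjusted p = 0.132), and LiPS-47 minus LiPS-50 gave -0.048 (adjusted p = 0.707) with a 95% interval from -0.19 to 0.090. The F test of Aen over all lines had an adjusted p of 0.0375. It missed the threshold when single cultures of LiPS-45, LiPS-57 or LiPS-50 were left out (0.0552 to 0.112). The F test call of Aen was also lost with median centring (adjusted p = 0.127) and with the control probe sets included (0.0515).

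Zmat3, a zinc-finger protein that binds RNA, had the largest spread within a line of all members, in LiPS-50. It (chromosome 3, probe set 10497673) measured 8.54, 8.39 and 8.37 log2 intensity in LiPS-45, 8.43, 8.31 and 8.34 in LiPS-57, 8.21, 8.29 and 8.25 in LiPS-47, and 9.0, 8.54 and 8.49 in LiPS-50. The first LiPS-50 culture stood far above the other 2, which overlapped with LiPS-45, and the SD in LiPS-50 was 0.282 (n = 3). LiPS-47 minus LiPS-50 was -0.42 (SE 0.113, adjusted p = 0.0232), a call lost without the first or the third LiPS-47 culture (adjusted p = 0.0703 and 0.0617) or with these lines fitted alone (0.0815). LiPS-45 minus LiPS-50 was -0.24 (adjusted p = 0.183) and LiPS-57 minus LiPS-50 was -0.31 (adjusted p = 0.0869, and 0.0428 without the third LiPS-50 culture). The F test did not call Zmat3 (adjusted p = 0.0894).

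Phlda3 and Ddit4 are targets that damp growth signalling, Phlda3 by competing with the kinase Akt for membrane lipids and Ddit4 by restraining mTOR, the growth-promoting kinase. Phlda3 (chromosome 1, probe set 10350146) measured 8.57, 8.88 and 8.79 log2 intensity in LiPS-45, 8.78, 9.0 and 8.86 in LiPS-57, 8.85, 8.84 and 8.59 in LiPS-47, and 9.18, 9.23 and 9.30 in LiPS-50. Cultures of the same line spread more than for Mdm2 or Trp53inp1, yet LiPS-50 cleared the highest LiPS-57 array by 0.180. Differences from LiPS-50 were -0.49 for LiPS-45, -0.36 for LiPS-57 and -0.48 for LiPS-47 (SE 0.0963), with adjusted p of 0.00432, 0.0246 and 0.00472. The LiPS-57 call was lost without the first or the third LiPS-57 culture (adjusted p = 0.0969 and 0.0723), without the second or the third LiPS-50 culture (0.0589 and 0.0831) and with median centring (0.0596). Its F test call was lost without the third LiPS-50 culture (0.0600).

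Ddit4 (chromosome 10, probe set 10369290) measured 8.25, 8.26 and 8.09 log2 intensity in LiPS-45, 8.08, 8.26 and 8.24 in LiPS-57, 8.30, 8.50 and 8.25 in LiPS-47, and 8.71, 8.65 and 8.59 in LiPS-50. LiPS-50 exceeded the rest by 0.0970, the narrowest gap among the 6 separated members, and the next array was the second LiPS-47 culture. Differences from LiPS-50 were -0.45 for LiPS-45, -0.46 for LiPS-57 and -0.30 for LiPS-47 (SE 0.0807), or 1.37-fold, 1.37-fold and 1.23-fold lower, with adjusted p of 0.00249, 0.00239 and 0.0231. The call against LiPS-47 was lost without the first or the third LiPS-47 culture (adjusted p = 0.0774 and 0.0928), without the first or the second LiPS-50 culture (0.0827 and 0.0585), and with these lines fitted alone (0.0562).

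Counted together, 7 of 8 members were called lower in LiPS-45 than in LiPS-50, where 8.18% of all tested probe sets were. For LiPS-57 the count was 6 of 8, against 8.16% of all tested probe sets, and for LiPS-47 it was 7 of 8, against 8.48%. Because the members are bright, the shares among probe sets above the 40th percentile are also given, which were 14.3%, 14.1% and 14.5%. All members lie at the 79.8th percentile or above, so this cut does not match their brightness. The other shares of called or separated probe sets were taken over all tested ones, dim ones included. No member was called higher in LiPS-45, LiPS-57 or LiPS-47 than in LiPS-50, where 8.3%, 7.48% and 7.31% of all tested probe sets were. The members' median log2 differences were -0.42, -0.41 and -0.45, against medians over all tested probe sets of -2.37e-04, 1.86e-04 and 0.014. Called lower than LiPS-50 in all 3 comparisons were 6 of 8 members, against 5.86% of all tested probe sets, and called higher in all 3 were 0, against 4.57%. The 3 comparisons share the LiPS-50 arrays and are not independent of each other. Since the members were chosen with earlier results of these data known, their counts beside all probe sets are descriptive and not an independent test.

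**Figure D2:**
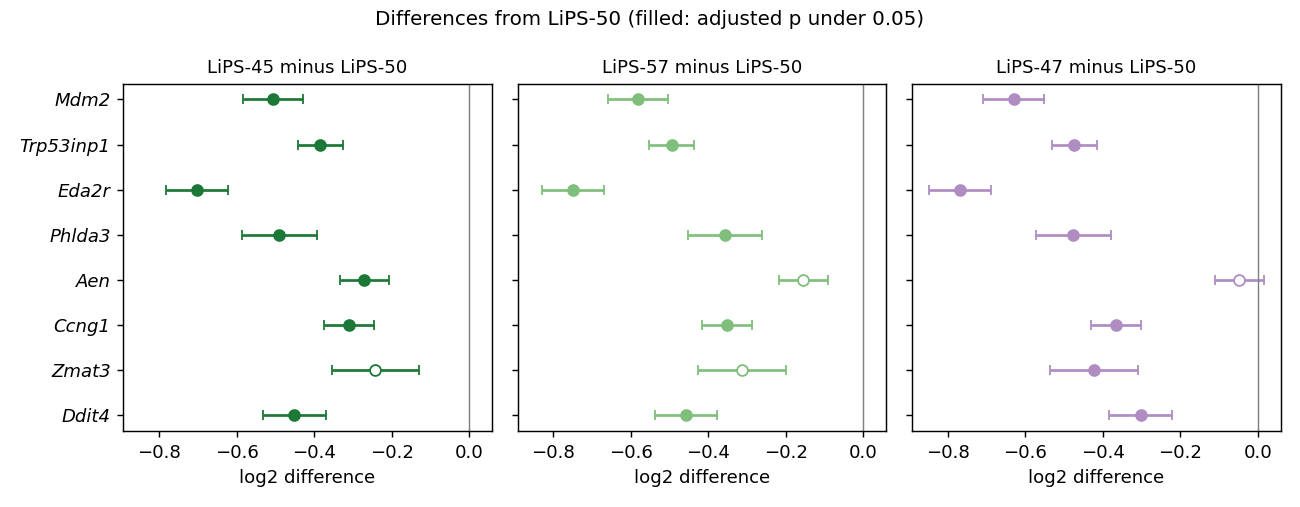
Log2 difference of LiPS-45, LiPS-57 and LiPS-47, each minus LiPS-50, for the 8 measured p53 targets, with bars of 1 standard error and filled points for an adjusted p below 0.05. All differences lie below 0, from -0.77 for Eda2r in LiPS-47 to -0.048 for Aen in LiPS-47.

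Among LiPS-45, LiPS-57 and LiPS-47 no member was called in any of 3 comparisons, where 0.266%, 0.0622% and 0.159% of all tested probe sets were. The 24 differences lay between -0.22 and 0.18, the lowest adjusted p was 0.303, and Aen in LiPS-45 minus LiPS-47 (log2 difference -0.22, unadjusted p = 0.00429) was the single one with an unadjusted p below 0.05. The widest bounds of their 95% intervals were -0.36 for Aen and 0.43 for Zmat3, both in LiPS-45 minus LiPS-47. For Zmat3 a difference of up to 1.34-fold between these lines was therefore not excluded. The limit differed by member, and for Trp53inp1 the bounds reached only -0.15 and 0.24. An F test over these 3 lines, added after the data had been seen, called 0 of 8 members and 0.211% of all tested probe sets. In order of level LiPS-50 came first for the 6 separated members, and the tests resolved no order of LiPS-45, LiPS-57 and LiPS-47 for these 6. For Trp53inp1 the LiPS-45 arrays, at intensities from 1900, lay narrowly above those of LiPS-57 and LiPS-47, at most 1896 and 1878. For Zmat3 the LiPS-47 arrays, at most 312, lay below those of LiPS-45 and LiPS-57, from 329 and 316. For Aen the 3 lines did not overlap, in the order LiPS-45, LiPS-57 and LiPS-47 from low to high, and the 95% interval of LiPS-45 minus LiPS-47 was -0.36 to -0.084, although no pair passed the adjustment over all tested probe sets.

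The design asks how lines with competence differ from lines without it. Competent minus not competent, with the line as a random block, gave log2 differences of -0.34 to -0.066 for the members, with a median of -0.20. None of the 8 was called by limma (lowest adjusted p = 0.648), as was 0% of all tested probe sets, of which 2226 had an unadjusted p below 0.05. Aen (-0.19) and Ddit4 (-0.30, unadjusted p = 0.00470) were the 2 members with an unadjusted p below 0.05. Aen measured 8.03 to 8.21 log2 intensity in the 6 competent arrays and 8.24 to 8.41 in the 6 arrays without competence. It was the single member whose classes did not overlap, a pattern in which all competent arrays were lower for 0.321% of all tested probe sets. Ddit4 measured 8.08 to 8.26 in competent arrays and 8.25 to 8.71 in the others, so that the ranges touched. Mdm2 in the arrays without competence spanned 10.15 to 10.91, with LiPS-47 overlapping the range of the competent lines. With no random block and only the spread between cultures as error, the same differences gave 5 calls (Mdm2, Eda2r, Trp53inp1, Aen and Ddit4). Of all tested probe sets 6.18% were called in that fit. Competence, however, was assigned per line and rests on 2 lines against 2. The random block used a single consensus correlation of 0.183 for all probe sets. Its unadjusted p-values therefore still draw on the spread between repeats and may be too small.

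Like the members on average, the fibroblast marker signal was highest in LiPS-50. Its median per array ranged over 8.41 to 8.69 log2 intensity in LiPS-45, 8.49 to 8.58 in LiPS-57, 8.02 to 8.62 in LiPS-47 and 9.10 to 9.36 in LiPS-50. When this median entered the fit as a covariate, an alternative added after the data had been seen, 0 of 8 members were called in each LiPS-50 comparison and in the F test. The calls over all tested probe sets shrank as well, to 1.18% for LiPS-45 minus LiPS-50, 0.995% for LiPS-57 minus LiPS-50, 0.418% for LiPS-47 minus LiPS-50 and 1.09% for the F test. The estimates moved by different amounts. Eda2r gave -0.56, -0.60 and -0.58 for LiPS-45, LiPS-57 and LiPS-47 minus LiPS-50 with standard errors of 0.158, 0.157 and 0.192, and Trp53inp1 gave -0.34, -0.45 and -0.41. Mdm2 gave -0.33, -0.41 and -0.40, Ccng1 gave -0.12, -0.16 and -0.12, and Phlda3 gave -0.19, -0.059 and -0.091. For Ddit4 the values were -0.18, -0.19 and 0.042, for Zmat3 -0.16, -0.23 and -0.32, and for Aen -0.21, -0.091 and 0.035. Because LiPS-50 and a high marker level coincide in all 3 of its arrays, the line and the marker signal cannot be told apart fully with these arrays.

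**Figure D3:**
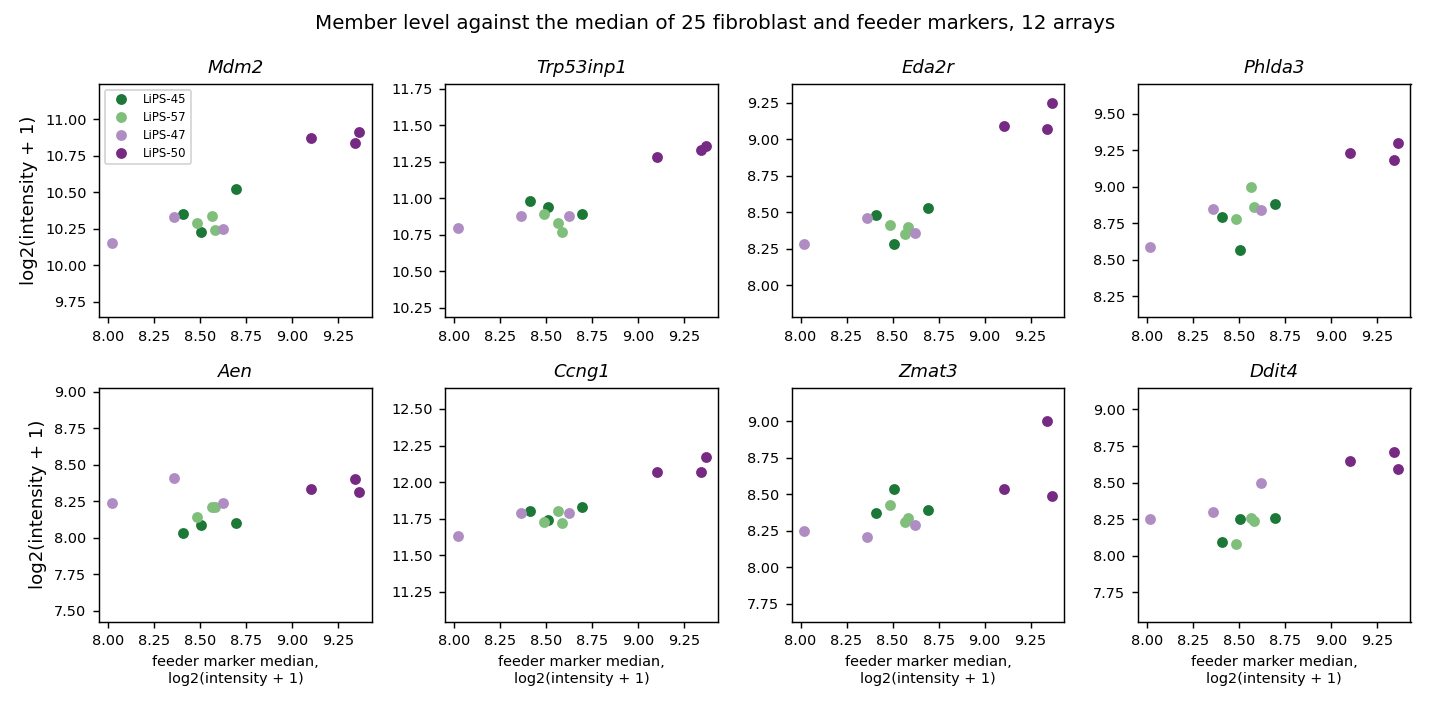
Log2 intensity of the p53 targets plotted in each array against the median log2 intensity of 25 fibroblast markers in the same array, coloured by line. The 3 LiPS-50 arrays lie to the right, at marker medians of 9.10 to 9.36, and the 9 other arrays at 8.02 to 8.69.

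Other known p53 targets were read from lists of 20 genes for growth arrest and repair and 16 genes for cell death, of which 19 and 15 had a probe set. Among the 34, 13 were called lower in LiPS-45, 12 lower in LiPS-57 and 13 lower in LiPS-47 than in LiPS-50. Called higher were 2, 2 and 3 of the 34. The shares of all tested probe sets were 8.18%, 8.16% and 8.48% lower and 8.3%, 7.48% and 7.31% higher. The median differences of the 34 were -0.17, -0.16 and -0.18, beside -0.42, -0.41 and -0.45 for the members. All LiPS-50 arrays were above the 9 others in 16 of 34 and below in 3, against 8.81% and 9.54% of all tested probe sets. Called in all 3 comparisons were 9, each lower than in LiPS-50, against 5.86% of all tested probe sets. They were Ak1, Plk3, Polk, Btg2, Psrc1, Ptprv, Tnfrsf10b, Perp and Pidd1, of which the last 3 are death genes. Btg2, Psrc1, Ptprv, Perp and Pidd1 were named after their values were seen. Cdkn1a, the cell cycle inhibitor best known among p53 targets, had no probe set of its own and was not analysed here.

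Ak1, an adenylate kinase, had the lowest F test p of the arrest and repair list. It measured 9.60, 9.68 and 9.61 log2 intensity in LiPS-45, 9.55, 9.72 and 9.64 in LiPS-57, 9.60, 9.59 and 9.42 in LiPS-47, and 10.26, 10.18 and 10.25 in LiPS-50. The profile was like that of Mdm2, with LiPS-50 alone high, and differences of -0.60, -0.59 and -0.69 from LiPS-50 (SE 0.0683, adjusted p = 1.09e-04, 1.40e-04 and 3.78e-05). Plk3, a stress-responsive kinase, gave -0.51, -0.30 and -0.45, and Polk, a polymerase that copies past DNA lesions, gave -0.38, -0.57 and -0.55, all called.

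In the death list Tnfrsf10b, a receptor for the death ligand TRAIL, measured 7.93, 8.08 and 7.83 log2 intensity in LiPS-45, 8.0, 8.05 and 7.83 in LiPS-57, 8.03, 8.06 and 7.91 in LiPS-47, and 8.52, 8.33 and 8.51 in LiPS-50. Its differences from LiPS-50 were -0.50, -0.49 and -0.45 (SE 0.0867), with adjusted p of 0.00195, 0.00239 and 0.00348. Ei24 gave -0.32, -0.19 and -0.43, of which the LiPS-57 value was not called (adjusted p = 0.0815). Bbc3, which encodes Puma, had differences of -0.036, 0.032 and 0.064, with adjusted p of 0.813, 0.852 and 0.664. Pmaip1, which encodes Noxa, was higher in LiPS-45 than in LiPS-50 (0.23, adjusted p = 0.0406) and gave 0.20 and 0.21 in LiPS-57 and LiPS-47 (adjusted p = 0.0797 and 0.0691). Bid, another activator of that pathway, was higher in LiPS-57 and LiPS-47 than in LiPS-50 by 0.34 and 0.43 (adjusted p = 0.00178 and 3.34e-04) and gave 0.14 in LiPS-45 (adjusted p = 0.115).

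A list of the BCL2 family, which governs that pathway and includes Bax, held 12 measured genes. Bid is in this list and in the death list, so its calls are counted in both. Bbc3 and Pmaip1 were counted in the death list alone. Of the 12, 1, 0 and 1 were called lower and 1, 2 and 2 higher in LiPS-45, LiPS-57 and LiPS-47 than in LiPS-50. The shares of all tested probe sets were 8.18%, 8.16% and 8.48% lower and 8.3%, 7.48% and 7.31% higher, so the counts of lower calls were near or under the background. Bcl2l1, which blocks cell death, differed from LiPS-50 by -0.24, -0.19 and -0.30, the LiPS-57 value not called (adjusted p = 0.0929). Bok, a relative of Bax, was higher in all 3 lines than in LiPS-50, by 0.20, 0.24 and 0.36.

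Of 23 measured regulators of p53, 2, 3 and 4 were called lower in LiPS-45, LiPS-57 and LiPS-47 than in LiPS-50, where 8.18%, 8.16% and 8.48% of all tested probe sets were. Called higher were 5, 5 and 5, against 8.3%, 7.48% and 7.31% of all tested probe sets. Mdm4, the partner of Mdm2 that holds p53 inactive, measured 8.84, 8.79 and 8.86 log2 intensity in LiPS-45, 8.72, 8.65 and 8.41 in LiPS-57, 8.52, 8.63 and 8.65 in LiPS-47, and 9.27, 9.15 and 9.13 in LiPS-50. It was lower in every line than in LiPS-50, by differences of -0.35, -0.59 and -0.58 (adjusted p = 0.0107, 4.71e-04 and 4.28e-04). Cdkn2a, whose Arf product blocks Mdm2 and which is abundant in cultured fibroblasts, measured 6.29, 6.39 and 6.35 in LiPS-45, 6.39, 6.46 and 6.61 in LiPS-57, 6.35, 6.55 and 6.33 in LiPS-47, and 7.03, 7.07 and 7.15 in LiPS-50. Its differences were -0.74, -0.59 and -0.67 (adjusted p = 5.59e-05, 3.34e-04 and 1.22e-04). In the other direction Trp53bp1, a DNA damage adaptor that binds p53, was higher than in LiPS-50 by 0.48, 0.31 and 0.41 (adjusted p = 0.00126, 0.0175 and 0.00297). The damage kinase gene Chek2, the acetyltransferase gene Kat5 and the deacetylase gene Sirt1, named after their values were seen, were likewise called higher in all 3 lines. Of the p53 relatives, Trp63 gave -0.27, -0.066 and -0.21 (adjusted p = 0.0135, 0.597 and 0.0488), and Trp73 was not called. Trp63 was dim, with a mean of 5.08 log2 intensity, below the 40th percentile of 5.21.

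Ddit4 answers to inputs other than p53, namely low oxygen and the amino acid response driven by Atf4, and 12 other genes of each input were measured. Hypoxia genes were split, with 3, 2 and 2 called lower and 3, 2 and 5 called higher in LiPS-45, LiPS-57 and LiPS-47 than in LiPS-50. For the counts in this paragraph, the shares of all tested probe sets were 8.18%, 8.16% and 8.48% lower and 8.3%, 7.48% and 7.31% higher. Adm, a vessel-dilating peptide, gave -0.60, -0.55 and -0.64, whereas Pdk1, a kinase that diverts pyruvate from the mitochondrion, gave 0.57, 0.55 and 0.57, all called. Of the Atf4 genes 0, 0 and 1 were called lower and 3, 6 and 6 higher than in LiPS-50. Asns, which makes asparagine, differed by 0.33, 0.35 and 0.34, and Psat1, of serine synthesis, by 0.33, 0.31 and 0.31. The part of either input in the Ddit4 values was not tested. Among 9 genes that restrain or form the mTOR pathway, 2 were called in each comparison, both lower than in LiPS-50. These were Ddit4l, the closest relative of Ddit4, at -0.76, -0.73 and -0.74 (adjusted p = 2.25e-05, 4.23e-05 and 3.43e-05), and Sesn3, a sestrin, at -0.45, -0.46 and -0.46.

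**Figure D4:**
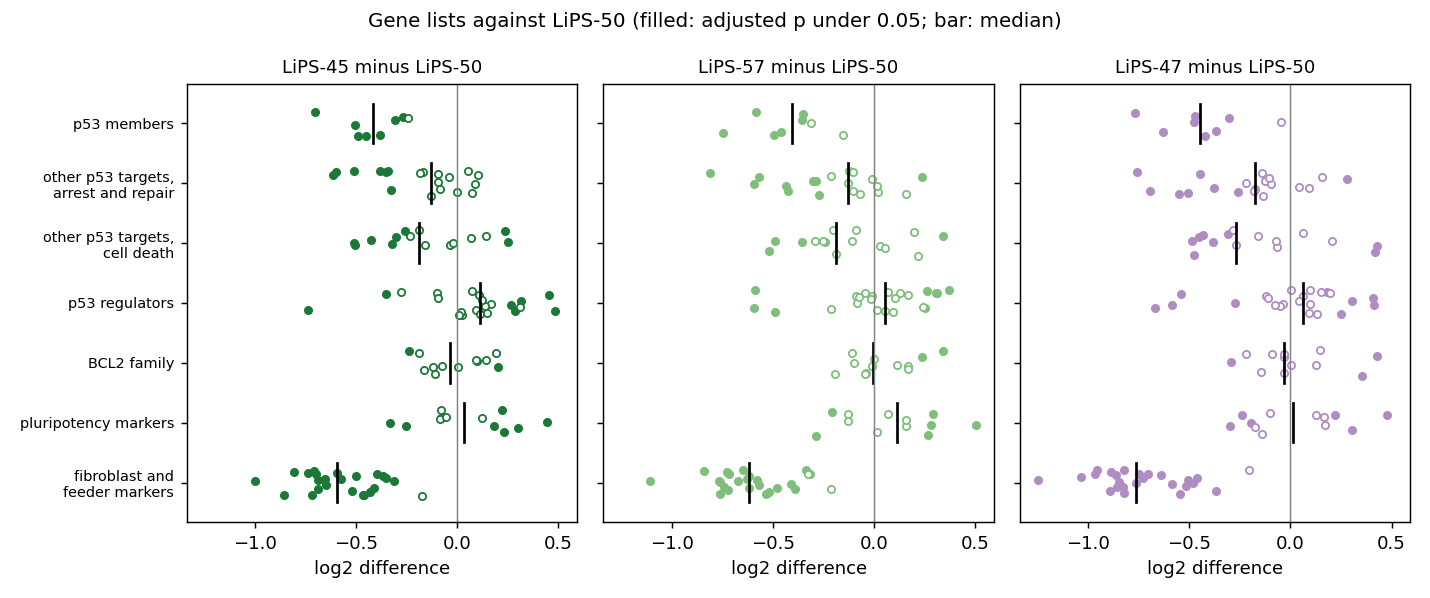
Log2 differences of LiPS-45, LiPS-57 and LiPS-47, each minus LiPS-50, for the genes of each list (points, filled at an adjusted p below 0.05) with the list median (bar). The members' medians lie at -0.42, -0.41 and -0.45, those of the arrest and repair targets at -0.13, -0.13 and -0.17, those of the death targets at -0.19, -0.19 and -0.27, and those of the fibroblast markers at -0.59, -0.62 and -0.77.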

How the data were processed

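The deposited table holds probe set intensities on a linear scale, 1 per probe set and array; per the submitters' processing notes they were made with GCOS 1.4, and how probes were summarised, corrected for background or normalized is not given in the sources used here. Total RNA was amplified and labelled with Affymetrix whole-transcript kits, per the labels' protocols. Quartiles and median of log2 values differed over arrays by 0.112, 0.0981 and 0.0890, so the scale was left as deposited. Values ranged from 3.06 to 16531 and were log2-transformed after adding 1, so that changes of dim genes are understated. No 2 arrays shared more than 0.607% identical values.

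Of 35556 probe sets, 6617 with identifiers below the lowest annotated one were taken as controls and left out. Of the 28939 tested, 21789 list 1 gene, 1621 several and 5529 none, and only the first kind names a gene. Symbols, chromosomes and promoters come from RefSeq tables of GRCm38.p6, and the tables' letters were searched with the p53 decamer named in the text, core C and G kept.

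Two-sided tests were run with limma 3.58.1 (R 4.3.3), adjusted by Benjamini-Hochberg over all tested probe sets with a threshold of 0.05, on 4 line means over 12 arrays, with 8 residual and 4.06 prior degrees of freedom. For competence, lines entered as random blocks through duplicateCorrelation, whose consensus was 0.183. The fit was tested on simulated data for LiPS-47 minus LiPS-50 over 28939 probe sets. It recovered 20% of 1.25-fold, 70% of 1.5-fold, 92% of 2-fold and 100% of 4-fold changes, and 6 of 147 calls were false. The simulation changed few probe sets and drew independent noise, whereas 4568 were called in the real comparison. Its recovery rates therefore do not carry over to that comparison.

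Members and gene lists were chosen with earlier results of these data known. Besides the members, the text names from each list up to 3 genes with the smallest F test p, the 3 genes most correlated with the member of smallest p, and Mdm4, Bbc3 and Pmaip1, except where it says that a gene was named after its values were seen; Fap, Vim, Fn1, Pou5f1 and Nanog illustrate marker lists. Alternatives were pseudocounts, median centring, quantile normalization, a filter at the 40th percentile, the control block, gene means, single pairs of lines, replicate number as block, no random block and leaving out each culture. The array titles give a replicate number without saying what it stands for. Deviations from line means correlated between -0.169 and 0.121 for same-numbered arrays and between -0.179 and 0.199 for differently numbered ones. Deviations from a mean of 3 arrays depend on each other, so these values cannot settle whether same-numbered arrays share a batch.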

Additional observations from a re-analysis of the deposited data

How the results depend on the processing

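Over the other scalings, pseudocounts, filters and fits listed in the methods, 6 to 7 members were called in LiPS-45 minus LiPS-50, 5 to 6 in LiPS-57 minus LiPS-50, 5 to 7 in LiPS-47 minus LiPS-50 and 6 to 7 in the F test, and 0 among the other 3 lines. Leaving out each culture in turn gave the ranges 6 to 7, 5 to 6, 5 to 7 and 5 to 7 for the same 4 counts, and 0 to 0 for the other pairs and for competence. Counts changed by more than 1.5 times in 3 settings. With the fibroblast marker median as a covariate, added after seeing the data, 0 members were called against LiPS-50 in each pair and in the F test. Without LiPS-50, also added then, the F test called 0 members. With no random block the competence count was 5. With the replicate number as a block the counts were 7, 6 and 7 against LiPS-50 for LiPS-45, LiPS-57 and LiPS-47, 0 in the other pairs, 6 in the F test and 0 for competence, and only Aen in the F test changed its call among members (adjusted p = 0.0574). The 8 residual degrees of freedom limit the fit, and a line with a culture left out had 2 arrays.

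Some differences turned their sign, among them the called Ddit4 difference of LiPS-47 minus LiPS-50, which was -0.30 in the fit without the covariate. With the marker covariate, LiPS-47 minus LiPS-50 became 0.035 for Aen, 0.042 for Ddit4 and -0.079 for Deptor, and competence became 0.039 for Zmat3. In that fit Bbc3 gave 0.046 for LiPS-45 minus LiPS-50, Bcl2l1 gave 0.021 for LiPS-57 minus LiPS-50 (-0.19 without the covariate), and Trp73 gave 0.084, 0.086 and 0.22 for LiPS-45, LiPS-57 and LiPS-47 minus LiPS-50. When single cultures were left out, Zmat3 in the competence comparison ranged from -0.10 to 0.033, positive without the first LiPS-50 culture. Bbc3 gave 0.015 for LiPS-45 minus LiPS-50 with median centring, and for LiPS-57 minus LiPS-50 it ranged from -0.045 (without the third LiPS-57 culture) to 0.11. For LiPS-47 minus LiPS-50, Deptor ranged from -0.039 to 0.042, negative without the third culture of LiPS-47 (-0.0013) or of LiPS-50. Egln3 ranged from -0.020 to 0.032, negative without the first LiPS-47 culture (-0.0032) or the third LiPS-50 culture, and Trp73 ranged from -0.12 to 0.012, positive without the first LiPS-47 culture. The cause was not tested. Centring or quantile normalization moved the median of all probe sets by less than 0.1.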
